A study of Vitis vinifera with 24 samples.

Results

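The change in the berry transcriptome over the whole of ripening was measured in Sangiovese berries from pre-bloom defoliated (PB) vines, as harvest (H) against the beginning of veraison (BV). The comparison holds the 6 arrays whose titles name pre-bloom defoliation at these stages, 3 at H and 3 at BV, of the 24 arrays of the series. In the PB vines, the main and lateral leaves of the 6 basal shoot nodes had been removed by hand at JD 147, before flowering, and the berries at H and at BV had both developed under this treatment. The groups set beside it were veraison-defoliated (V) berries, from vines stripped of the same nodes at JD 211, and untreated control (C) berries. PB and C berries were sampled at BV, at the end of veraison (EV) and at H. V berries were sampled from EV on, so C berries at BV serve as their starting point. All vines were of a single cultivar and clone (12T, grafted to SO4) chosen within a uniform vineyard row, and the RNA of each array came from seedless tissue of pooled berries from 3 vines. For 6 C arrays, those of EV and H, the labels describe a cluster-thinning experiment rather than the defoliation experiment.

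Veraison is the onset of ripening, when grape berries soften, begin to import large amounts of sugar and, in red cultivars, start to colour. Between that point and harvest the berry is known to lose its photosynthetic machinery and its malic acid, to accumulate anthocyanins and other flavonoids in the skin, and to remodel its cell walls, with abscisic acid as a main hormonal signal. Removal of the basal leaves takes away a carbon source and exposes the clusters to light. The measured transcripts could not be assigned to these processes. The identifiers of the probes are paired with no gene in the sources used here and 0 of 117999 matched the RefSeq gene table. No gene, tissue marker or probe sequence is therefore given below, and the labelled tissue could not be checked against its markers.

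Each array gave a normalized fluorescence intensity for 117999 grapevine probes and for 19091 probes of random sequence, which serve as negative controls. Values are given as log2 intensities per probe, so that a difference of 1 is a 2-fold difference. The probes were the units tested, and several can report on a single gene. The distribution of intensities was nearly the same on every array, with quartiles that differed by at most 0.00066 on the log2 scale. Levels are therefore relative to the other probes of an array. Averaged over the random-sequence probes of an array, the log2 intensity, here called the random-probe level, was 6.38, 6.56 and 6.03 on the H arrays of PB berries (replicates 1, 2 and 3), against 5.85, 5.95 and 5.83 on their BV arrays. The H values lay above all BV values, by 0.45 on average (6.33 ± 0.27 at H and 5.87 ± 0.07 at BV, SD, n = 3 each). An exact two-sided permutation test gave p = 0.1, and no split of 3 and 3 arrays can give a smaller value. The 95th percentile of the random-sequence probes, used below as a floor for detection, was 8.67, 9.07 and 7.69 at H, against 7.26, 7.55 and 7.17 at BV. A probe thus had to be brighter at H than at BV to pass it, most of all on replicates 1 and 2.

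The H arrays also agreed less with each other than the BV arrays did. Pearson correlations over the grapevine probes lay between 0.822 and 0.906 among the H arrays and between 0.965 and 0.971 among the BV arrays, and between 0.724 and 0.897 for pairs of an H and a BV array. Replicate 3 at H was nearest to BV (0.877 to 0.897) and replicate 2 was farthest (0.724 to 0.752). The root mean square SD between replicates was 0.92 on the log2 scale at H and 0.45 at BV. The root mean square difference between H and BV was 1.30 over all probes. The spread between replicates alone would give a root mean square difference of 0.59. Root mean squares do not add, so 0.59 is not a share of the 1.30.

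**Figure D1:**
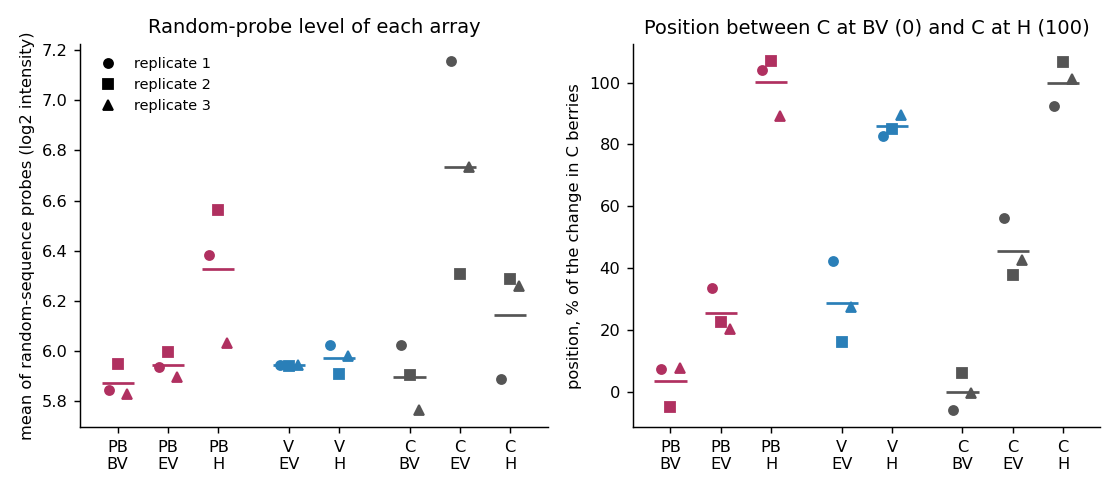
Random-probe level of each of the 24 arrays (left, log2 intensity averaged over its random-sequence probes) and the position of each array between C berries at BV (0) and at H (100), as a percentage of the change in C berries over the probes called there (right). Points are arrays, marker shapes are replicates, horizontal lines are group means, and the H arrays of PB berries sit between 6.03 and 6.56 on the left and between 89.1 and 107 on the right.

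From BV to H, transcripts of PB berries changed in both directions and by large amounts. With limma on the 6 arrays, 7836 of the 117999 probes (6.64%) passed, with a p below 0.02 after Benjamini-Hochberg adjustment and a change of 2-fold or more. Of these, 3484 (2.95% of all probes) were upregulated and 4352 (3.69%) were downregulated. Before adjustment, 38419 probes (32.6%) had a p below 0.05. The 2-fold minimum removed no probe, because the smallest change among those that passed was 2.67-fold. At the edge of the list, the last probe inside had an adjusted p of 0.01999 and a log2 difference of -2.28, and the first outside had 0.02001 and -1.58. Limma called 0 of the 19091 random-sequence probes, with 2081 (10.9%) at an unadjusted p below 0.05. These probes were dim, with averages of 5.87 at BV and 6.33 at H, and were fitted and adjusted separately. Of the dimmest grapevine probes (4.87 to 6.28), 0.055% were upregulated and 0.19% downregulated. The count of 0 therefore sets no rate for brighter probes.

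The number of calls depended on the arrays and on the model far more than on the scaling. Median centring with MAD scaling gave 7909 and quantile normalization 7852. Without replicate 3 at H, the array nearest to BV, 20768 probes were called, and without replicate 1 at H, 1483. Leaving out a BV array gave 382 without replicate 1, 194 without replicate 2 and 0 without replicate 3, where the lowest adjusted p was 0.023 and 27581 probes had an unadjusted p below 0.05. In every omission of a single array, all 7836 probes of the full list kept their direction and an unadjusted limma p below 0.05. The list was chosen on these same arrays, which favours both. Entering the replicate number as a block gave 1072 calls, although the sources used here do not say whether a number marks the same vine block at both stages. With the random-probe level entered as a covariate, 0 probes were called, with a lowest adjusted p of 0.033 and 20311 probes at an unadjusted p below 0.05. The random-probe level was itself higher on every H array than on every BV array, so in this comparison the stage and the level cannot be told apart.

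The upregulated probes had a median increase of 2.50 on the log2 scale, or 5.67-fold, with quartiles of 2.04 and 3.18. The downregulated probes had a median change of -2.80 (6.96-fold), with quartiles of -3.58 and -2.24. An increase of 8-fold to under 16-fold was reached by 730 probes (21.0% of the upregulated ones), one of 16-fold to under 32-fold by 249 (7.15%) and one of 32-fold or more by 85 (2.44%). For decreases, the same classes held 1170 (26.9%), 489 (11.2%) and 199 (4.57%) probes. The largest fitted changes were 7.01 for an increase and 7.18 for a decrease in size. Many of these fitted values compare a bright stage with one under the floor of detection. By the floor of each array, which was higher at H, this was more often so for decreases. The classes therefore give no order between the directions.

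**Figure D2:**
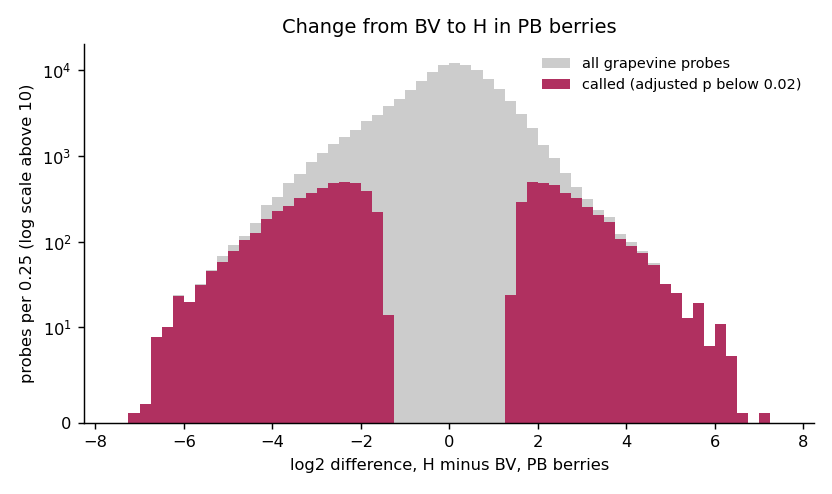
Number of grapevine probes for each log2 difference between H and BV in PB berries, in steps of 0.25, for all 117999 probes (grey) and for the 7836 called ones (red), on a vertical axis that is logarithmic above 10. Called probes lie outside a gap on both sides of 0, since the smallest called change was 1.41 in size.

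The probes that fell started bright and ended dim, and those that rose did the opposite from a lower start. On the arrays, the median log2 intensity of the upregulated probes was 11.07, 11.26 and 10.64 at H (replicates 1, 2 and 3), against 8.27, 8.02 and 8.16 at BV. That of the downregulated probes was 6.83, 6.78 and 7.41 at H, against 10.37, 10.76 and 10.37 at BV. In both sets, replicate 3 at H stood nearest to BV. It was the least changed of the H arrays for 2440 (70.0%) of the upregulated and 2217 (50.9%) of the downregulated probes, while replicate 2 was the most changed for 2076 (59.6%) and 1839 (42.3%). The median change from the BV mean was 2.59, 2.77 and 2.13 on the H arrays for the upregulated probes and -2.90, -2.89 and -2.51 for the downregulated ones. All 7836 called probes had H values that did not overlap the BV values, a property that 39.6% of all probes shared (19.9% with H above BV and 19.7% with H below BV) and that the choice of these probes favours.

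**Figure D3:**
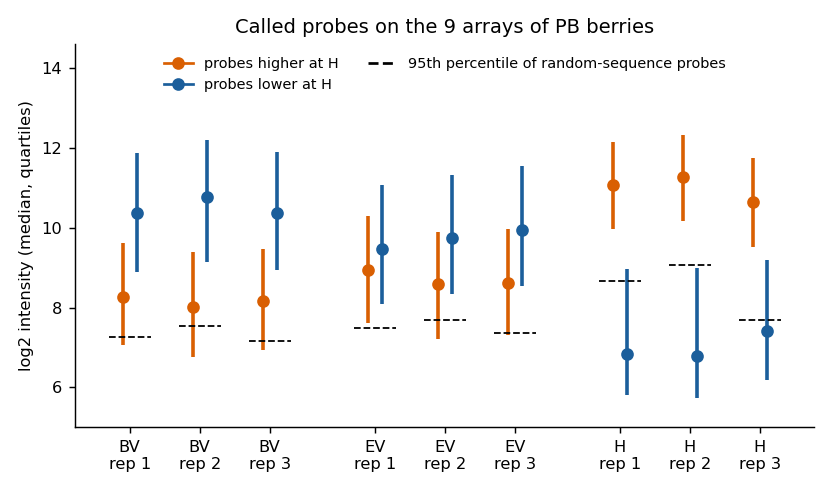
Log2 intensity of the 3484 probes higher at H (orange) and the 4352 probes lower at H (blue) on each of the 9 arrays of PB berries, with points for medians, bars for quartiles and dashed lines for the 95th percentile of the random-sequence probes of the array. The medians at EV lie between those at BV and H and nearer to BV, and the median of the blue probes lies under the dashed line on all 3 H arrays.

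Set against the floor of each array, the 95th percentile of its random-sequence probes, the 2 directions differed in how many probes were measured at both stages. Of the upregulated probes, 1981 (56.9%) exceeded the floor on all 6 arrays, and 491 (14.1%) were at or under it on the 3 BV arrays and above it on the 3 H arrays. Of the downregulated probes, 961 (22.1%) exceeded it on all 6 arrays, and 2150 (49.4%) were above it on the 3 BV arrays and at or under it on the 3 H arrays. Over all 117999 grapevine probes, called or not, 43582 exceeded the floor on all 6 arrays, 595 crossed it upwards in this way and 5780 downwards. The larger number of downward crossings was therefore not particular to the called probes. For probes not above the floor at one stage, the fold change is a lower bound, taken from the mean log2 value of the bright stage against the floor of the dim arrays or the value of the probe where that was higher. For the 491 upregulated probes this bound had a median of 5.31-fold, it reached 8-fold or more for 139, and its largest value was an increase of at least 51.5-fold. For the 2150 downregulated probes, whose dim stage is measured against the brighter floor at H, the median bound was 1.70-fold, it reached 8-fold or more for 122, and its largest value was a decrease of at least 38.7-fold. With the highest of the 6 floors used for every array, which was chosen after seeing the data, the counts turned to 1480 upregulated probes (42.5%) and 1547 downregulated probes (35.5%) that crossed the floor, so that the larger share was then among the upregulated probes. Over all grapevine probes, 2782 crossed that floor upwards and 3057 downwards. Among the probes measured above their floor on all 6 arrays, the median change was 2.22 for the upregulated and -2.24 for the downregulated ones, or 4.66-fold and 4.72-fold.

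The share of probes called depended on their level. In 5 bins of equal size by the mean log2 intensity over the 6 arrays, 0.055% of the dimmest probes (4.87 to 6.28) were upregulated and 0.19% were downregulated. In the second bin (6.28 to 7.51) these shares were 1.15% and 4.28%, in the third (7.51 to 9.22) 5.03% and 6.33%, in the fourth (9.22 to 11.08) 5.86% and 4.56%, and in the brightest (11.08 to 15.64) 2.67% and 3.08%. Downregulated probes were therefore the more frequent ones in the lower part of the range, and upregulated probes in the fourth bin only.

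Probes with neighbouring numbers in their identifiers tended to be called together. The table holds 26050 pairs of probes with consecutive numbers. Of the 745 upregulated probes whose next number was present, 261 (35.0%) were followed by another upregulated probe, where 2.95% of all probes were upregulated. Of the 980 such downregulated probes, 318 (32.4%) were followed by another downregulated one, against 3.69% of all probes. A pair was called in the same direction in 579 cases and in opposite directions in 9. Over all consecutive pairs the changes from BV to H had a Pearson correlation of 0.46, against 0.0053 for probes 100 rows apart in the order of their numbers, given as a description over pairs that share the same 6 arrays. The longest run of consecutive numbers called in the same direction held 4 probes in either direction. What the numbering follows is not given in the sources used here.

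For single transcripts, the 2 probes that increased most and the 2 that decreased most were taken from the 2942 called probes that exceeded the floor on all 6 arrays, 1981 of them upregulated and 961 downregulated. These 4 were chosen by their change between H and BV, so their values in that comparison are a description. VitusP00079451 had log2 intensities of 14.93, 14.66 and 14.55 at H, against 8.54, 8.51 and 8.23 at BV, an increase of 6.29 (standard error 0.29, limma adjusted p = 0.00188), or 78.1-fold. Every H value was far above every BV value, and the values within each stage were close to each other. At EV the same berries gave 11.35, 10.75 and 10.20, above all BV values and below all H values. VitusP00079450, whose number is the one before, had 14.21, 13.99 and 13.70 at H, against 8.58, 8.73 and 8.03 at BV, an increase of 5.52 (standard error 0.33, limma adjusted p = 0.00188). At EV it stood at 10.22, 9.96 and 9.37. Both probes were thus part of the way up at EV on each of the 3 arrays.

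The 2 named probes that decreased were bright on all 3 BV arrays. VitusP00250671 had 8.72, 9.91 and 8.98 at H, against 14.78, 15.03 and 15.02 at BV, a change of -5.74 (standard error 0.39, limma adjusted p = 0.00188), or 53.4-fold. On replicate 1 at H it was hardly brighter than the floor of 8.67. At EV it had 13.62, 13.67 and 14.10, so that most of the decrease came after EV. VitusP00200430 had 8.77, 9.70 and 10.57 at H, against 14.76, 14.63 and 14.80 at BV, a change of -5.05 (standard error 0.47, limma adjusted p = 0.0029). It had 13.93, 14.30 and 14.21 at EV, again close to BV. The next number after VitusP00250671 was called with a change of -6.33 in the same direction, while for VitusP00200430 the number before was not called, with a change of -0.06, and the number 2 places after was called with a change of -4.24. Without replicate 3 at BV none of the 4 named probes passed the threshold (adjusted p between 0.023 and 0.026), nor did they once the random-probe level was a covariate (between 0.033 and 0.062), where the increases were 6.12 and 5.13 and the decreases -6.36 and -4.12.

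**Figure D4:**
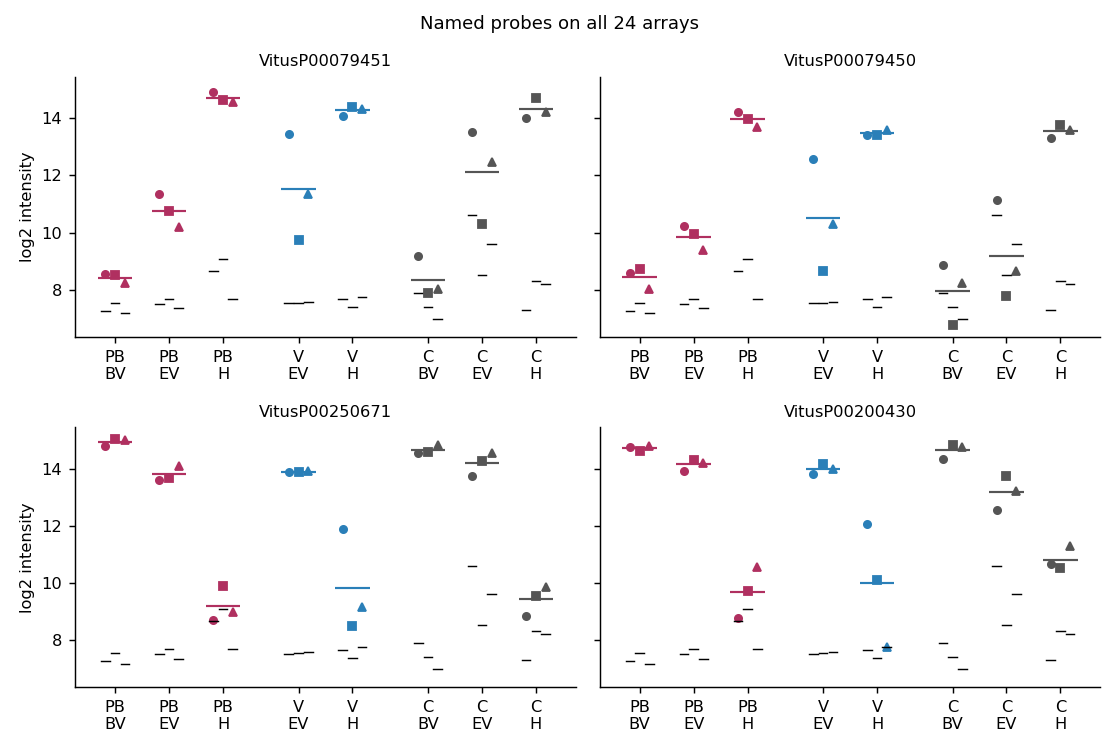
Log2 intensity of the 4 named probes on the 24 arrays, for PB (red), V (blue) and C (grey) berries at each stage sampled. Points are arrays, marker shapes are replicates 1 (circle), 2 (square) and 3 (triangle), long lines are group means and short black lines mark the floor, and in all 3 treatments the upper probes are higher and the lower probes lower at H than at BV, with C berries at BV as the start of V.

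The EV arrays of PB berries, which played no part in the comparison of H with BV, were used to ask when between these stages the change took place. The median log2 intensity of the upregulated probes was 8.94, 8.58 and 8.61 on the EV arrays and that of the downregulated probes 9.46, 9.74 and 9.94. Upregulated probes had a median change of 0.43 from BV to EV and of 2.08 from EV to H, and downregulated probes of -0.64 and -2.15. By replicate, the change from the BV mean at EV was 0.61, 0.30 and 0.37 for the upregulated probes and -0.84, -0.63 and -0.41 for the downregulated ones, with replicate 1 farthest along in both. The EV mean lay between the BV and H means for 2856 (82.0%) of the upregulated and 3725 (85.6%) of the downregulated probes, against 47.0% of all probes. It fell short of the midpoint between BV and H for 3275 (94.0%) of the upregulated and 3811 (87.6%) of the downregulated probes, against 72.4% of all probes, counted in the direction of each probe's own change. The called probes were chosen for a wide gap between the BV and H means, which favours an EV mean inside it. Their choice on the BV and H arrays can also enlarge the median changes from BV to EV and from EV to H.

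Whether EV lay off the midpoint was tested with limma on the 9 PB arrays, as EV minus the mean of BV and H, a contrast whose estimate would be independent of H minus BV if the spread were equal at BV and H. The spread was larger at H (0.92 against 0.45), so probes chosen for a large change tend to have a midpoint moved towards H, which makes EV more often short of it. It called 10 of the 117999 probes (0.00847%), with 19340 (16.4%) at an unadjusted p below 0.05. All 10 were among the 7836 probes changed between BV and H, 3 upregulated and 7 downregulated, and in each EV lay on the side of BV. At an unadjusted p below 0.05, EV was short of the midpoint in 2006 of the upregulated probes and past it in 5, and short in 2200 and past it in 73 of the downregulated probes. Over all grapevine probes the same split was 17471 short and 1869 past. Probes with a small spread pass both tests more easily, since both draw on the same BV and H arrays. The count moved when any single array was left out. Without replicate 3 at H it was 5584 and without replicate 2 at H it was 61, while leaving out any of the other 7 arrays gave 0. For the 4 named probes the distance of EV from the midpoint did not pass (adjusted p between 0.062 and 0.22), with -0.80 ± 0.29 (standard error) for VitusP00079451 and -1.35 ± 0.28 for VitusP00079450, and 1.73 ± 0.30 for VitusP00250671 and 1.94 ± 0.36 for VitusP00200430.

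Tested as separate steps with 6 arrays each, H against EV called 2515 probes (2.13%) by limma, and these included 962 of the upregulated and 1212 of the downregulated probes, a comparison that shares the H arrays. EV against BV called 0 probes by limma, with 18091 at an unadjusted p below 0.05. The random-probe level averaged 5.94 ± 0.05 at EV (SD, n = 3), against 5.87 at BV and 6.33 at H. Its highest value at EV was 6.00 and its lowest at H was 6.03. Stage and level therefore cannot be told apart in the step from EV to H either. What part the level had in the counts of the 2 steps was not tested.

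The same transcripts were then followed in C berries, in which no array is shared with PB. The C arrays at H carry the labels of the cluster-thinning experiment and the C arrays at BV do not. Stage and labelled experiment therefore cannot be told apart in C. The same limit holds for the difference between the changes in PB and C and for positions on the C axis. In C, limma on 6 arrays called 8963 probes between H and BV (7.6%), 4584 upregulated and 4379 downregulated. Of the PB probes, 4758 were called in the same direction in C, which is 60.7% of the PB list and 53.1% of the C list, and 0 were called in the opposite direction. By direction, 2373 (68.1%) of the upregulated and 2385 (54.8%) of the downregulated PB probes were called in C. The median log2 intensity of the upregulated PB probes in C berries was 10.43, 10.92 and 10.69 at H and 8.10, 8.34 and 8.06 at BV. That of the downregulated PB probes was 7.98, 7.49 and 7.93 at H and 10.47, 10.29 and 10.51 at BV. The C arrays were thus separated by stage in both sets without overlap. On the C arrays the upregulated PB probes had a median change of 2.20 and the downregulated ones of -2.31, and the change was of 2-fold or more in the same direction for 3270 (93.9%) and 3956 (90.9%) of them, against 15.7% and 17.4% of all probes. The 3078 PB probes not called in C had the same sign there in 3002 cases (97.5%), against 78.1% of all probes, with a median change of 1.52 in the direction of PB. Of these 3078, 2281 (74.1%) had an unadjusted p below 0.05 in C, against 32.7% of all probes. Over all grapevine probes, the changes in PB and in C had a Pearson correlation of 0.83, a value across probes that are not independent replicates and that were normalized together on each array. The count in C depended on single arrays as well and ran from 1015 without replicate 3 of C at BV to 17471 without replicate 1 of C at H.

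**Figure D5:**
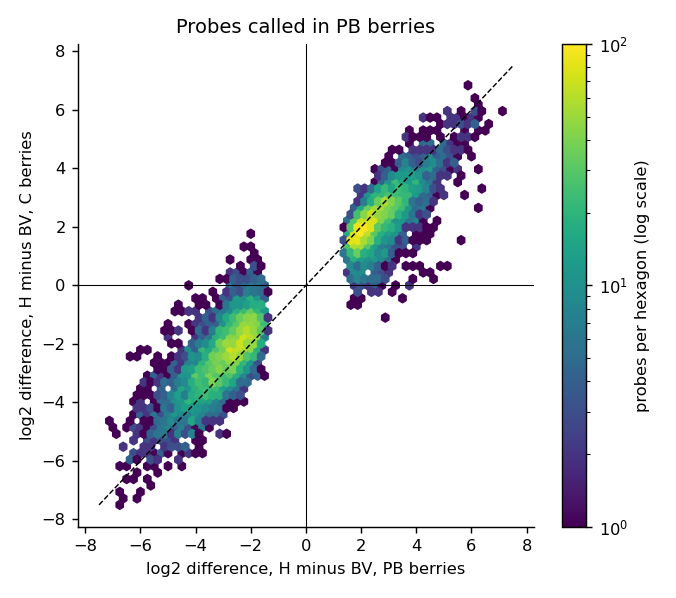
Log2 difference between H and BV in C berries (vertical) against that in PB berries (horizontal) for the 7836 probes called in PB, with the colour of each hexagon giving the number of probes on a log scale and the dashed line marking equal changes. Of these probes 76 lie on the other side of 0 in C, by at most 1.65.

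Taken the other way, the probes called in C moved in PB berries by amounts close to those in C. The 4584 probes upregulated in C had a median change of 2.09 in PB and 2.23 in C, and the 4379 downregulated ones of -2.64 in PB and -2.59 in C. The second value of each pair is the one by which the list was chosen. The difference between the changes was tested directly with limma on the 12 arrays of both treatments. It called 0 of 117999 probes, with 4660 (3.95%) at an unadjusted p below 0.05 and a lowest adjusted p of 1.00. Leaving out any of the 12 arrays also left 0 calls. The difference had a median standard error of 0.63 on the log2 scale, so one of 2-fold amounted to less than 2 standard errors in most probes. Over the PB lists, the change in PB minus that in C had a median of 0.29 for the upregulated and -0.51 for the downregulated probes, values that the choice of the lists in PB enlarges. A change of the opposite sign in C was found for 76 of the 7836 probes, 19 upregulated and 57 downregulated in PB, where 78.1% of all probes had the same sign in both, and 0 of these 76 had an unadjusted p below 0.05 in the limma fit of C.

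Placed on the axis of the C berries, from C at BV (0%) to C at H (100%) over the 8963 probes called in C, the PB arrays lay at 104%, 107% and 89.1% at H, at 7.5%, -4.9% and 7.9% at BV and at 33.7%, 22.7% and 20.4% at EV. The means were 100% ± 9.5 at H, 3.5% ± 7.3 at BV and 25.6% ± 7.1 at EV (SD, n = 3 each). The C arrays themselves lay between 92.5% and 106% at H and between -5.8% and 6.0% at BV, and their means are 100% and 0% by construction. PB replicate 1 at H and replicate 2 at BV lay inside these ranges, replicate 2 at H and replicates 1 and 3 at BV lay above them, and replicate 3 at H lay below. The axis and its probes were chosen on the C arrays, so their ranges are no measure of spread for the PB arrays.

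V berries at H against C berries at BV gave a further view that shares no array with PB, although it mixes treatments. Limma called 12623 probes there (10.7%), 6179 upregulated and 6444 downregulated. Of the PB probes, 5381 were called in the same direction, 68.7% of the PB list and 42.6% of the V list, and 0 in the opposite one. The upregulated PB probes had a median change of 1.96 and the downregulated ones of -2.31, and 3204 (92.0%) and 3917 (90.0%) of them changed by 2-fold or more in the direction of PB, against 12.1% and 13.1% of all probes. The comparisons in V and C share the C arrays at BV. The random-probe level averaged 5.90 ± 0.13 on these, against 5.97 ± 0.06 at H in V and 6.15 ± 0.22 at H in C (SD, n = 3 each). In both, the H values overlapped those of C at BV. What part the level had in these comparisons was not tested. A total of 4172 PB probes, 2064 upregulated and 2108 downregulated, were called in the same direction in all 3 comparisons, or 53.2% of the PB list. Over all probes, 7.6% were called in C and 10.7% in V, and the shared C arrays at BV make these 2 comparisons dependent on each other.

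For the named probes, the changes in the other berries were of similar size. VitusP00079451 increased by 6.29 in PB, against 5.92 in V and 5.96 in C. VitusP00079450 increased by 5.52 in PB, 5.52 in V and 5.60 in C, although on replicate 2 of C at BV it stood below its floor. The change of VitusP00250671 was -5.74 in PB, -4.82 in V and -5.23 in C, and in V its H values were spread from 8.48 to 11.88. For VitusP00200430 the changes were -5.05 in PB, -4.67 in V and -3.84 in C. Its 3 H values in PB, 8.77 to 10.57, overlapped those in V, 7.77 to 12.08, and also those in C, 10.51 to 11.28. The difference between PB and C was -1.21 with a standard error of 0.59 for this probe and between -0.51 and 0.32 for the other named ones, and none passed the test (limma adjusted p = 1.00 for each). Each of the 4 was called in V (adjusted p between 0.000739 and 0.0137) and in C (adjusted p between 0.00123 and 0.00209).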

How the data were processed

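The RNA of each pool was labelled with Cy3 and hybridised to a NimbleGen grapevine expression array. The authors deposited a normalized fluorescence intensity per probe, on a linear scale, in a table of 139363 rows, of which 137090 held values. The scanning, background correction and normalization software are not given in the sources used here. Their log2 values were used with no further normalization and no filter. Probes whose identifier starts with Vitus were fitted with limma 3.58.1 in R 4.3.3 (lmFit and eBayes without trend), with a mean per group, on the 6 arrays of PB berries at H and BV, which left 4 residual degrees of freedom. Random-sequence probes were fitted separately. A call required a p below 0.02 after Benjamini-Hochberg adjustment over all grapevine probes and a log2 change of 1 or more in size, thresholds that follow those of the study. C berries, V berries and the 9 and 12-array contrasts were fitted in the same way, each on its own arrays.

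Named are the 2 probes that increased most and the 2 that decreased most among called probes that exceeded the 95th percentile of the random-sequence probes on all 6 arrays and whose groups did not overlap. Gene lists had been laid out for the case that probes were paired with genes and were not used. The members and lists were chosen with earlier results of these data known. The replicates are pools from separate vine blocks per the study's methods, and the blocks of a treatment were sampled again at each stage. The main fit did not model the blocks. Scripts were tested on simulated data. Precision is limited by the number of arrays. Each pool was measured on a single array, so p-values measure the spread between pools and between arrays together. The alternatives tried were other scalings, filters, thresholds and variance priors, all arrays or the 9 PB arrays in the fit, the replicate number as a block, SAM, the random-probe level as a covariate, and leaving out each array.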

Additional observations from a re-analysis of the deposited data

How the results depend on the processing

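Main counts were 7836 probes for PB, 8963 for C, 12623 for V, 10 for EV off the midpoint, 0 for PB minus C and 0 for random-sequence probes. Fitting all 24 arrays gave 19698 for PB, 16504 for C, 31 for the midpoint and 28 random-sequence probes, all 28 higher at H. With trend and robust estimation, 12485, 14434 and 97 probes were called for PB, C and the midpoint, and at an adjusted p below 0.05, 17689, 18406 and 279, with 20233 for V. Median centring with MAD scaling and quantile normalization over grapevine probes each gave 5 for the midpoint. For PB alone, SAM over all 20 label assignments called 23342, the 9 PB arrays, a fit added after seeing the data, 17923, and the random-probe level as a covariate 0. With the replicate block the counts were 1072 for PB, 4549 for C and 0 for the midpoint. The deviations of same-numbered arrays at BV and H had correlations between -0.06 and 0.05, and the sources used here do not say whether a number marks the same vine block at both stages. Leaving out 1 array gave 0 to 20768 for PB, 1015 to 17471 for C, 4063 to 9434 for V and 0 to 5584 for the midpoint, and 0 for PB minus C and for random-sequence probes. Other alternatives kept each count within 1.5 times of its main value. The 4 named probes kept their direction in all 17 alternatives, lost the call in 2 of them each, and VitusP00200430 in 4. Which part of the PB counts goes with the higher random-probe level at H was not tested beyond the covariate. Probes under the floor have only bounded changes.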
